A study of Mus musculus with 6 samples.

Results

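The cytosolic ribosomal protein genes were taken from the gene tables of a mouse T cell study by symbol: Rpsa, Rplp0, Rplp1, Rplp2 and every symbol that starts with Rpl or Rps and a digit. Pseudogene symbols and the Rps6k kinases were left out. The rule gave 86 of the 23415 entries with a usable estimate, 52 of the large (60S) and 34 of the small (40S) ribosomal subunit. No expression value was used in this choice. Of the 86, 8 were paralogs of core subunits and 1, Rps19bp1, encodes a binding protein of RPS19 and not a ribosomal protein, which left 77 core genes.

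The study compared Th2 cells, the helper T cells of type 2 immunity, of mice without and with NLRP3, the sensor of an inflammasome. CD4 T cells came from spleen and lymph nodes of C57/Bl6j mice aged 7 weeks, either NLRP3 KO or wild-type (WT). The groups were NLRP3KO naive, WT naive, NLRP3KO day 3, WT day 3, NLRP3KO day 6 and WT day 6, with 1 library each. Day 3 and day 6 cells had been cultured on CD3/CD28-coated plates, in 10 ng/ml of IL-4 with interferon gamma blocked by antibody. Both naive libraries were made from purified mRNA and the 4 Th2 libraries from RNA depleted of ribosomal RNA, so time in culture and kind of library cannot be told apart. The labels do not say how many mice each library holds. All differences below are between single libraries, have no replicate check and carry no p-value.

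Ribosomal proteins coat and shape the ribosomal RNAs of the 2 subunits: the small subunit decodes the message and the large subunit forms the peptide bonds. Their mRNAs are short and among the most abundant of a cell, and they begin with a run of pyrimidines, the 5′ TOP tract, through which mTOR signalling and LARP1 control their translation and stability. Resting T cells hold a small stock of ribosomes and make many more after activation through the T cell receptor.

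The motif CTCTTTC, a pyrimidine run of the TOP type, is shown for those genes that hold it near the annotated start. The TOP tract is the sequence feature that defines the family as a regulated group. RefSeq promoter windows on build GRCm38.p6, from 250 bases before to 50 after the start, were at hand for 65 of the 86 genes. On either strand, CTCTTTC lay in 18 of these 65 windows (27.7%), against 9.28% of the windows of all 27025 genes. Within 10 bases before to 20 after the start and on the gene's strand it lay in 5 of 65 (7.69%), against 0.403% of all genes. The motif CCGGAAG, the core bound by ETS factors, lay in 26 windows (40.0%, against 9.93% of all genes), and AAGATGGC, the core bound by YY1, in 6 (9.23%, against 3.19%), each on either strand; these motifs were counted independently of one another. A match is a string of letters and not a shown binding site. The 30 bases around the start are given 5′ to 3′ for the 5 genes, with CTCTTTC in capitals. In each, the first 10 bases lie before the annotated start. The motif begins at that start in Rpl28, Rpl35 and Rpl35a. In Rpl18 and Rps26 it begins after the start, so no TOP tract is shown at the annotated start of those genes. They lie at chr7:45718061-45718090 (+ strand) for Rpl18, chr7:4792955-4792984 (+) for Rpl28, chr2:39005112-39005141 (- strand) for Rpl35, chr16:33056472-33056501 (+) for Rpl35a and chr10:128626487-128626516 (-) for Rps26.
Rpl18: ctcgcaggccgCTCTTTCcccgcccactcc
Rpl28: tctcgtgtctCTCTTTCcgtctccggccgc
Rpl35: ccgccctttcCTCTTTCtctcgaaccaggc
Rpl35a: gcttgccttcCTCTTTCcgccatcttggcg
Rps26: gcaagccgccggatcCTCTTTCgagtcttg

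Expression is given as FPKM, a fragment count normalised to transcript length and library size, as deposited, with the deposited lower and upper bound of each value. Log2 differences were taken on log2(scaled FPKM + 1) after scaling the libraries to each other, and a gene was kept where 1 of the 2 libraries had an FPKM of 1 or more. That scale understates the differences of low genes. Below, 2-fold higher or lower means a log2 difference of 1 or more in size. Bounds are compared as deposited. An FPKM of 0 has bounds of 0 in the family, except for upper bounds above 0 in Rpl26 (5 libraries) and in Rps27 in WT naive (3.65). The number of fragments behind a value was estimated from its bounds, taken to reflect counting error alone. That does not hold for every gene: Rps27a in WT day 3, at 0.951 FPKM, came out at 0.0461 fragments. The estimates came to 1104513 fragments on genes in NLRP3KO naive, 1250992 in WT naive, 25316 in NLRP3KO day 3 and 29370 in WT day 3. They came to 5766 in NLRP3KO day 6 and 30583 in WT day 6. The median ribosomal protein gene above 0 rested on 236 and 411 estimated fragments in NLRP3KO and WT naive, on 8.35 and 8.36 at day 3, and on 4.53 and 9.0 at day 6. Nlrp3, the targeted gene, was listed at 0 in every library except WT naive, where it had 0.0569 FPKM, so its deletion could not be checked. Of 6 markers of CD4 T cells, NLRP3KO day 3 had Cd3d at 0, NLRP3KO day 6 had Cd3g, Cd5 and Lck at 0, and the other 4 libraries had none at 0.

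The ribosomal protein genes took 13.03% of the summed FPKM of genes in NLRP3KO naive and 19.99% in WT naive, 11.8% and 11% in NLRP3KO and WT at day 3, and 11.3% and 11.4% at day 6. The large subunit gave 7.01% and 11.2% in NLRP3KO and WT naive, 6.31% and 5.80% at day 3, and 6.32% and 6.37% at day 6. The small subunit, with fewer genes, gave 6.02% and 8.83%, 5.46% and 5.19%, and 5.02% and 5.0% in the same order. WT naive stood above the other 5 libraries for both subunits. The share of estimated fragments, which is not divided by transcript length, was smaller: 2.92% (95% Wilson interval 2.89 to 2.95) in NLRP3KO naive and 4.79% (4.76 to 4.83) in WT naive. It was 3.47% (3.25 to 3.70) and 3.33% (3.13 to 3.54) in NLRP3KO and WT at day 3, and 4.15% (3.66 to 4.69) and 3.57% (3.37 to 3.78) at day 6. These intervals cover counting error alone, because PCR copies cannot be told from separate molecules here.

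**Figure D1:**
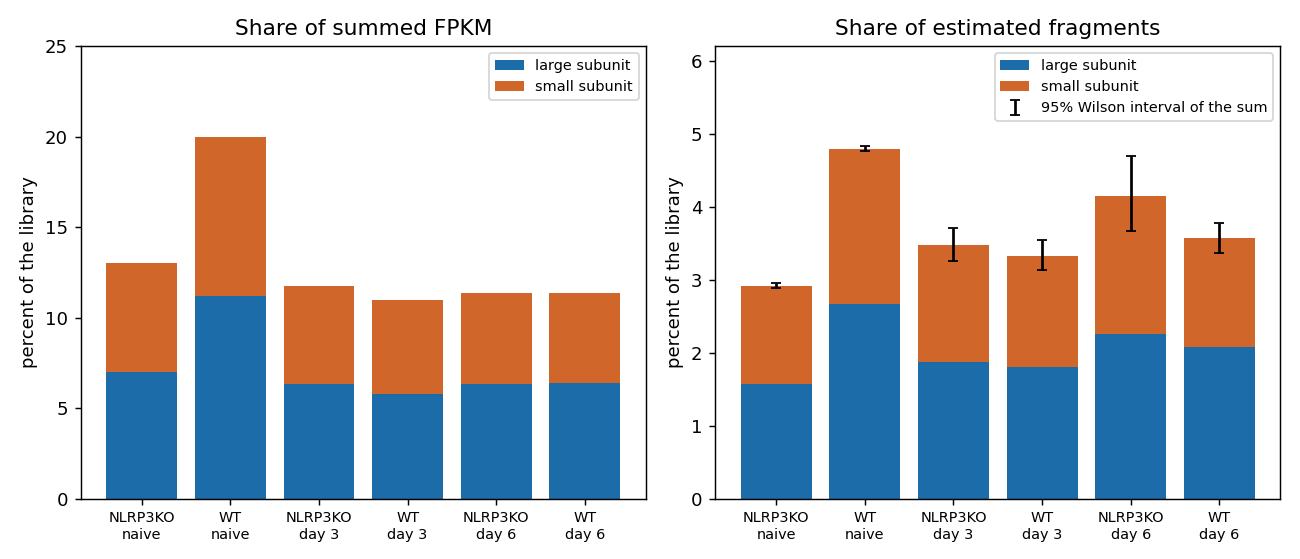
Share of each library taken by the large and the small subunit genes, as percent of summed FPKM (left) and of estimated fragments (right, with the 95% Wilson interval of the sum). WT naive stands highest in both panels, at 19.99% of summed FPKM and 4.79% of fragments.

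Among large subunit genes, Rpl41, which encodes the shortest ribosomal protein, was the highest of the family in 4 of the 6 libraries (mm9 chr10:127985166-127986224). Its FPKM was 2499 and 4187 in NLRP3KO and WT naive, 229 and 216 at day 3, and 230 and 288 at day 6. Rplp1, an acidic protein of the stalk that recruits elongation factors, had 1779 and 2992, 228 and 123, and 120 and 86.8 in the same order of libraries. Its partners on the stalk differed widely in level: Rplp0, the stalk base, had 720 and 730, 108 and 92.7, and 54.0 and 122, while Rplp2 had only 39.3 and 59.6, 7.11 and 11.2, and 0 and 5.91. Rpl8, a protein near the peptidyl transferase centre, had 1790 and 1472 in NLRP3KO and WT naive, 123 and 162 at day 3, and 53.9 and 185 at day 6. Rpl32 had 936 and 1466 in NLRP3KO and WT naive, 129 and 78.6 at day 3, and 86.5 and 186 at day 6. Rpl13a, known in myeloid cells for a further role in silencing inflammatory mRNAs, had 306 and 483, 112 and 122, and 211 and 124 in the same order. With Rpl41, Rplp1 and Rpl8 these were the 5 large subunit genes with the highest mean scaled level, and Rpl13a alone kept more than 100 FPKM in every library while standing below 500 in both naive ones. Rpl5 and Rpl11 bind the 5S RNA and, when unassembled, the p53 regulator MDM2. Rpl5 had 183 and 167 in NLRP3KO and WT naive, 10.1 and 9.72 at day 3, and 8.24 and 8.52 at day 6. Rpl11 had 135 and 113 in naive cells, but was listed at 0 in both NLRP3KO Th2 libraries, against 11.1 and 3.92 in WT at day 3 and day 6. In NLRP3KO, 3 fragments would have given 12.8 at day 3 and 35.3 at day 6, above the WT value of each day. A difference was thus not detectable at this depth.

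Among small subunit genes, Rps20 (mm9 chr4:3761620-3762747) came to 763 and 1438 in NLRP3KO and WT naive, 136 and 233 at day 3, and 239 and 177 at day 6, which made it the highest of the family in WT day 3 and NLRP3KO day 6. Rps9, a protein of the decoding region, had 1386 and 1409 in NLRP3KO and WT naive, 113 and 172 at day 3, and 167 and 168 at day 6. Rps15 had 1112 and 1562 in NLRP3KO and WT naive, 83.8 and 66.1 at day 3, and 0 and 79.2 at day 6. Rps3, which lines the mRNA entry channel, had 848 and 900, 104 and 98.0, and 53.5 and 63.4. Rps6, the substrate of the S6 kinases downstream of mTOR, was lower, at 462 and 598, 19.9 and 13.9, and 30.9 and 37.0. Rps14 and Rps19 are known in humans from anaemias with a faulty small subunit. Rps14 had 721 and 962 in NLRP3KO and WT naive, 102 and 44.1 at day 3, and 68.6 and 54.5 at day 6. Rps19 had 235 and 311, 17.4 and 18.9, and 32.0 and 25.5, and Rpsa, also known as a laminin receptor, 396 and 480, 46.6 and 32.8, and 22.5 and 54.8. In rank, Rps20 was at 10 of 86 in NLRP3KO naive and at 1 in NLRP3KO day 6, and at 7 in WT naive and 4 in WT day 6.

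The order of the 86 genes was similar in all libraries, with Spearman's rho between 0.75 (WT naive with NLRP3KO day 6) and 0.96 (NLRP3KO naive with WT naive). These are descriptions across genes, which share the authors' length model and are not independent. The subunit medians of FPKM were 136 for large and 296 for small in NLRP3KO naive, and 197 and 359 in WT naive. Rps15a, the gene with the longest reference transcript, had 24.2 and 29.3 in NLRP3KO and WT naive, 6.33 and 3.32 at day 3, and 7.73 and 2.49 at day 6. Reference transcripts ran from 371 bases for Rpl38, which in mouse is needed for translation of Hox mRNAs, to 5179 for Rps15a. FPKM followed length only weakly, with a rho of -0.07 in NLRP3KO naive to -0.43 in NLRP3KO day 6. Copies elsewhere in the genome make many values uncertain: the share of 50-base stretches of the transcript that also occur in other annotated genes was 53.1% for Rpl41, 92.1% for Rpl10 and 95.1% for Rpl35, but 2.96% for Rps3.

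**Figure D2:**
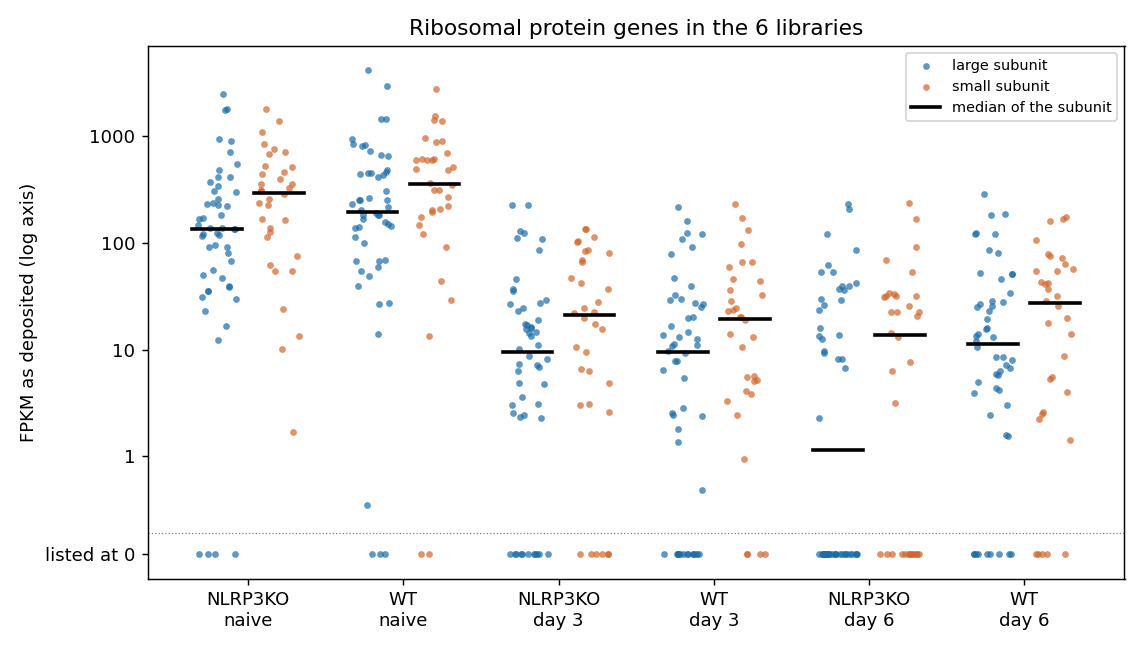
FPKM of the 52 large and 34 small subunit genes in each library on a log axis, with black lines at the subunit medians. Genes listed at 0 are drawn at the bottom, and they are most frequent in NLRP3KO day 6, where 39 of the 86 are at 0. That library also has the fewest of all genes above 0 (2777).

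In naive cells, after scaling, nearly all ribosomal protein genes were lower in the NLRP3KO library than in the WT library. Of 82 genes kept, 40 were 2-fold lower and 1 (Rps27) was 2-fold higher, where 2.32% of all 9985 genes kept were that much lower and 0.21% higher. As deposited, without scaling, 11 were 2-fold lower and 2 higher, and the share of all genes in that setting is not given here. The median log2 difference was -0.98, against 0.01 over all genes, and as deposited -0.60, against 0.37. The large subunit (median -1.04, 27 of 48 genes 2-fold lower) and the small subunit (median -0.81, 13 of 34) overlapped broadly. By sign, 79 of 82 were lower, against 4799 of all 9985 genes kept. With bounds that also did not overlap, 37 were 2-fold lower, against 1.45% of all genes, and 1 was higher, against 0.18%. The family's median relative to that of all genes lay within 0.1 of -1 under each of 4 scalings. Pooled over the family, the share of estimated fragments in NLRP3KO was 0.609 (exact 95% interval 0.600 to 0.617) of that in WT, which compares these libraries and not the genotypes.

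Single genes showed the size of the gap. Rpl41 had bounds of 1446 to 1632 in NLRP3KO naive, against 2492 to 2688 in WT naive, and a log2 difference of -1.16. Rplp1 stood at -1.17 and Rps20 at -1.33, and in both the bounds of the NLRP3KO library lay wholly below those of WT. The lowest value was that of Rpl34 (mm9 chr3:130429749-130433226), with FPKM of 35.1 in NLRP3KO naive and 219 in WT naive (-2.92). The pseudogene Rpl34-ps1, outside the 86, had 37.5 in NLRP3KO naive and was listed at 0 in WT naive, and how reads were divided between gene and pseudogene was not tested. Next came Rps27l at -2.14 (10.2 in NLRP3KO, 44.0 in WT), Rps28 at -2.06 (61.9, against 203 in WT) and Rpl35 at -1.84 (301, against 811 in WT). Rpl23 (55.9 in NLRP3KO, 146 in WT, -1.73) and Rps27a (139 in NLRP3KO, 349 in WT, -1.72) followed. The genes shown above with CTCTTTC near the start lay at -0.87 (Rpl18), -1.02 (Rpl28), -1.84 (Rpl35), -0.97 (Rpl35a) and -1.07 (Rps26).

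A few ribosomal protein genes stood near or above WT. Rps27 (mm9 chr3:90016589-90017570), a zinc finger protein of the small subunit, had 55.1 FPKM in NLRP3KO naive (bounds 30.4 to 79.7) and was listed at 0 in WT naive, where 3 fragments would have given 5.64. That 0 had an upper bound of 3.65, and 51.1% of the 50-base stretches of Rps27 also occur in other genes. Whether it is a failed estimate was not tested. Rps2 had 358 in NLRP3KO naive and 210 in WT naive, a log2 difference of 0.34, with bounds apart. Rps4y2 had 1.69 in NLRP3KO naive and was listed at 0 in WT naive. Rpl8 (-0.14), Rpl11 (-0.16) and Rpl3 (-0.18) differed little, and for Rpl8 the deposited FPKM were the higher in NLRP3KO.

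The naive difference went with transcript length, also outside the family. With reference transcripts of up to 500 bases, 10 ribosomal protein genes had a median of -1.15 and 82 other genes one of -0.58. Over 500 and up to 750 bases, the ribosomal protein genes had -1.04 and other genes -0.52. Up to 1000 bases they had -0.78 and other genes -0.32, and up to 1500 bases -1.04 and other genes -0.12. Over 1500 and up to 2500 bases, 7 ribosomal protein genes had -0.69 and other genes 0.04. The deposited bounds imply shorter models for the family than the reference does, with a median ratio of 0.588 over 80 genes. Classed by that implied length, a choice made after seeing the data, the gap was smaller among short transcripts: up to 300 bases the median was -1.12 for 14 ribosomal protein genes and -0.88 for 61 other genes, and from 300 to 400 bases it was -1.03 and -0.80. From 600 to 1000 bases it was -0.80 for ribosomal protein genes and -0.24 for other genes. Among reference transcripts of up to 1000 bases with a mean FPKM over 100, 29 ribosomal protein genes had a median of -1.02 with 15 of them 2-fold lower, and 14 other genes had a median of -0.76 with 28.6% 2-fold lower. Short and abundant transcripts of other genes were thus lower too, and how much of the family's difference goes with length or level was not tested.

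**Figure D3:**
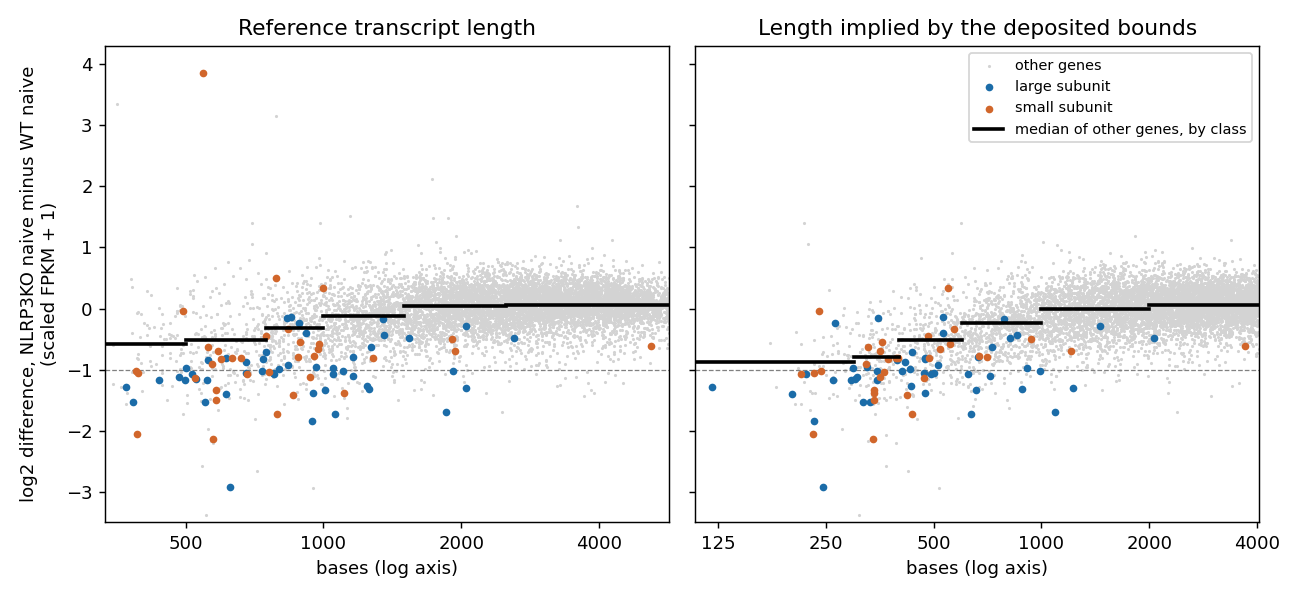
Log2 difference of NLRP3KO naive minus WT naive for each gene against reference transcript length (left) and the length implied by the deposited bounds (right), both on log axes; the dashed line marks -1 and black steps are medians of other genes by length class. Other genes beyond the axis range are not drawn. The steps sink from near 0 to -0.58 and -0.88 in the shortest classes, and most ribosomal protein genes lie below them.

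Other genes of the translation machinery were compared in the same way. Fau, which encodes a small subunit protein fused to a ubiquitin-like domain, was 2-fold lower in NLRP3KO naive, with 343, against 547 in WT (-1.08). Of 18 other mRNAs with a TOP tract, such as those of elongation factors, Npm1 and Btf3 were 2-fold lower, at -1.32 and -1.02, and the list's median was -0.27. Hnrnpa1 had 7.38 in NLRP3KO and 0 in WT. Eef1a1, the elongation factor that brings tRNA to the ribosome, had 2892 in NLRP3KO and 2351 in WT (-0.12), and Eef2, the translocation factor, 694 and 348 (0.57). Of 8 regulators of TOP mRNAs, such as Mtor and Larp1, and of 18 ribosome assembly genes, such as Ncl and Fbl, 0 were 2-fold apart, with medians of -0.18 and 0.02.

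Markers of other cell types also differed between the naive libraries. All 4 B cell markers were above 0, with a summed FPKM of 33.0 in NLRP3KO and 74.2 in WT, and Cd79a and Cd79b were 2-fold lower in NLRP3KO. The 3 haemoglobin entries, which mark erythroid cells, summed to 453 in NLRP3KO and 174 in WT. After scaling, the 2 entries of Hba-a1 were higher in NLRP3KO, at 1.05 and 1.40, but Hbb-b1 stood at -0.11. CD8 T cell markers (2 of 2 above 0) summed to 15.7 in NLRP3KO and 16.1 in WT and myeloid markers (4 of 4) to 19.4 and 14.4. The NK cell markers summed to 0.644 and 0.894, with Ncr1 at 0 in WT, while CD4 T cell markers summed to 1691 in NLRP3KO and 1284 in WT. All these sums are of FPKM as deposited, without scaling. After scaling, the median log2 difference was 0.21 for CD4 T cell markers, -0.14 for CD8 T cell markers and 0.09 for the 2 myeloid markers kept. In these 3 lists 0 markers were 2-fold apart. The part of the other cell types in the result was not tested, and in bulk RNA fewer cells of a type and less RNA per cell cannot be told apart.

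At day 3 of Th2 culture the family's median lay close to that of all genes. Of 73 genes kept, 11 lay 2-fold or more above WT in NLRP3KO and 7 below, where 25.4% of all genes kept were that much higher and 27.2% lower. The median was 0.14, against 0.11 over all genes, with 0.13 for the large and 0.15 for the small subunit, and 64 of the 73 were above 0 in both libraries. The pooled share of fragments in NLRP3KO was 1.04 (0.951 to 1.14) of that in WT.

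Rpl36al was among 2 genes that were 2-fold lower with bounds that did not overlap, against 2.42% of all genes, and 0 were higher in this way, against 2.16%. Rpl36al was listed at 0 in NLRP3KO day 3 and had 26.8 in WT day 3 (bounds 6.40 to 44.8), and 3 fragments would have given 14.8 in NLRP3KO. The lower bound in WT lay beneath that floor. Rps20 had 136 in NLRP3KO and 233 in WT (-0.96), Rplp1 228 and 123 (0.70), Rps14 102 and 44.1 (1.03) and Rps21 81.3 and 20.3 (1.80), and in each the bounds overlapped. In the ribosome assembly list 10 of 13 genes kept were 2-fold lower in NLRP3KO day 3, with a median of -1.69, and 6 of these were listed at 0 there. Among them was Nop56, a core protein of box C/D snoRNPs, with 1.20 in NLRP3KO and 8.52 in WT (-2.53).

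At day 6 most ribosomal protein genes were lower in NLRP3KO, as were most of all genes kept. Of 72 genes kept, 42 were 2-fold lower and 3 (Rpl9, Rps23 and Rps15a) higher, where 53.8% of all genes kept were that much lower and 20.9% higher. For Rpl9 and Rps23 the NLRP3KO values, 13.3 and 6.31, lay under the 26.0 and 34.6 that 3 fragments would have given. The median was -1.37, against -1.52 over all genes, and as deposited, without scaling, -1.19 against -1.04. The large subunit had a median of -1.90 (27 of 43 lower) and the small subunit -1.04 (15 of 29). NLRP3KO day 6 was the shallowest library, and 25 of the 72 genes were listed at 0 in 1 of the 2 libraries. Over the 47 genes above 0 in both, the median was -0.56, against 0.33 over all genes above 0 in both. The pooled share of fragments ran the other way, at 1.16 (1.01 to 1.34) of that in WT. The median and the pooled share thus differed in direction, and the part of depth in them was not tested.

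With bounds that did not overlap, 12 ribosomal protein genes were 2-fold lower in NLRP3KO day 6, against 12.2% of all genes, and 0 were higher, against 0.225%. Rps15 (mm9 chr10:79755176-79756859) was listed at 0 in NLRP3KO day 6 and had 79.2 in WT day 6 (bounds 37.5 to 116), and 3 fragments would have given 37.9 in NLRP3KO. The lower bound in WT lay just beneath that floor. Rps3a was likewise listed at 0, against 41.0 in WT, where 3 fragments would have given 22.1 in NLRP3KO. Rps10 (0, against 28.8 in WT), Rpl35 (0, against 45.6), Rpl17 (0, against 15.9) and Rpl7l1 (0, against 4.33) were at 0 too, but in these genes 3 fragments would have given 34.4, 53.0, 24.5 and 5.96 in NLRP3KO, above the WT value, so a difference was not detectable at this depth. Rpl4 had 36.3 in NLRP3KO and 122 in WT (-1.90), Rpl8 53.9 and 185 (-1.94), Rpl29 13.7 and 81.2 (-2.68), Rplp0 54.0 and 122 (-1.34) and Rpsa 22.5 and 54.8 (-1.43). Rpl7 had 9.80 in NLRP3KO and 51.5 in WT. For Rpl29 and Rpl7 the NLRP3KO values lay under the 30.2 and 18.4 that 3 fragments would have given. Rpl13a (211 in NLRP3KO, 124 in WT, 0.59) and Rps20 (239 and 177, 0.26) lay above WT with bounds that overlapped.

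**Figure D4:**
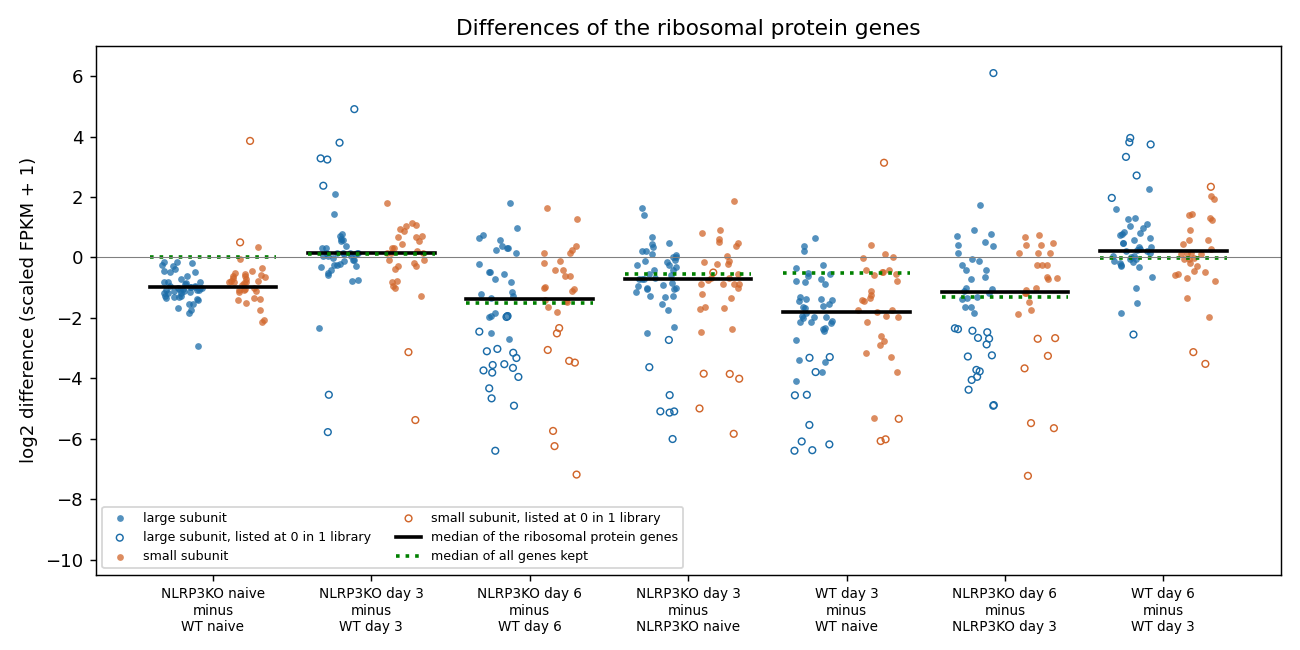
Log2 difference of each ribosomal protein gene kept in 7 pairs of libraries, by subunit; open circles mark genes listed at 0 in 1 library of the pair, black lines the family's median and dotted lines the median of all genes kept. The family's median lies below that of all genes in NLRP3KO naive minus WT naive (-0.98 against 0.01) and in WT day 3 minus WT naive (-1.82 against -0.52), and near it at day 3 and day 6 between genotypes.

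Between naive cells and day 3, the family's median difference was below 0 in both genotypes after scaling, as was that of all genes kept. The gap between family and all genes was wider in WT than in NLRP3KO. In NLRP3KO, 31 of 82 genes kept were 2-fold lower at day 3 and 3 (Rps27l, Rpl34 and Rpl13a) were higher, where 32.1% of all genes kept were that much lower and 10.8% higher. For Rps27l and Rpl34 the day 3 values, 6.60 and 16.3, lay under the 13.1 and 18.1 that 3 fragments would have given. With upper-quartile scaling 20 of the 82 were lower and 6 higher, and as deposited 81 and 0. The medians of all genes were then -0.18 and -2.33, and the shares of all genes that were 2-fold apart in these settings are not given here. The median was -0.72, against -0.53 over all genes, with -0.71 for the large and -0.81 for the small subunit. In WT, 57 of 81 were 2-fold lower and 1 (Rps27, listed at 0 in WT naive) higher, where 31.3% of all genes kept were lower and 9.99% higher. The Rps27 value in WT day 3, 3.86, lay under the 27.0 that 3 fragments would have given. The WT median was -1.82, against -0.52 over all genes, with -1.97 for the large and -1.46 for the small subunit. Over genes above 0 in both libraries the medians were -0.59 in NLRP3KO (69 genes) and -1.54 in WT (67 genes), against 0.02 and -0.00 over all genes. Bounds as deposited, which carry the shift of the whole libraries, were apart and 2-fold lower in 31 genes in NLRP3KO (31.9% of all genes) and in 57 in WT (31.0%), and 2-fold higher in 0 (0.826% of all genes in NLRP3KO and 0.774% in WT). Both comparisons use a naive library that also enters the genotype comparison above, so these results are not separate from it. As deposited, without scaling, the medians were -3.52 in NLRP3KO and -4.37 in WT, against -2.33 and -2.05 over all genes. The difference between the genotypes in this step was not tested. The pooled share of fragments at day 3 was 1.19 (1.11 to 1.27) of that in naive cells for NLRP3KO, and 0.695 (0.651 to 0.740) for WT. The median and the pooled share thus differed in direction for NLRP3KO.

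Single genes differed in this step. Rps27a, a ubiquitin fusion protein gene, had 3.02 FPKM in NLRP3KO day 3 and 139 in NLRP3KO naive (-2.46), and 0.951 in WT day 3 and 349 in WT naive (-5.31). Rpl10, which joins the large subunit last, stood at -0.70 in NLRP3KO and -3.79 in WT. Both day 3 values of Rps27a lay under what 3 fragments would have given, which was 10.3 FPKM in NLRP3KO. So did Rpl10 in WT day 3, at 2.55 FPKM, where 3 fragments would have given 8.11. For both genes the day 3 bounds overlapped between the genotypes. How far their step differed between genotypes could thus not be told at this depth. Rpl13a lay above its naive level after scaling, by 1.40 in NLRP3KO and 0.63 in WT, although the deposited FPKM were lower at day 3 (112 in NLRP3KO and 122 in WT, against 306 and 483 in naive cells). Rps20 lay at 0.37 in NLRP3KO and -0.01 in WT. Short and abundant transcripts of other genes were lower at day 3 as well. Among reference transcripts of up to 1000 bases with a mean FPKM over 100, 29 ribosomal protein genes had an NLRP3KO median of -0.75 and 14 other genes one of -1.75, and in WT the medians were -1.74 and -2.88. Within that class the ribosomal protein genes lay above the other genes in both genotypes, but at a mean FPKM of 10 to 100 they lay below them. There 27 ribosomal protein genes had an NLRP3KO median of -1.02 and 239 other genes one of -0.59, and in WT the medians were -3.30 and -1.33.

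Between day 3 and day 6, where the kind of library was the same, NLRP3KO cells had 40 of 70 genes 2-fold lower at day 6 and 2 (Rpl36al and Rpl39) higher, where 51.8% of all genes kept were lower and 21.0% higher. The median was -1.14, against -1.31 over all genes. Rpl4 (36.3 at day 6 and 85.7 at day 3, -1.36), Rps10, Rps15 and Rps3a (each at 0 at day 6) had bounds apart, against 8.3% of all genes lower in this way, and 0 were higher, against 0.0576%. For Rps10, with 24.6 at day 3, 3 fragments would have given 34.4 at day 6, so a difference was not detectable at this depth. For Rps15 and Rps3a, with 83.8 and 27.7 at day 3, 3 fragments would have given 37.9 and 22.1 at day 6. Their lower bounds at day 3, 36.3 and 11.2, lay beneath those floors. Over the 46 genes above 0 in both the median was -0.41, against 0.42 over all genes. The pooled share at day 6 was 1.19 (1.03 to 1.38) of that at day 3, so median and pooled share again differed in direction.

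In WT, 19 of 75 genes were 2-fold higher at day 6 and 8 lower, where 24.1% of all genes kept were higher and 20.2% lower. The median was 0.22, against -0.03 over all genes. Rpl32 and Rps6 were among 3 genes that were 2-fold higher at day 6 with bounds apart, against 1.61% of all genes, and 0 were lower, against 1.23%. Rpl32 had 186 at day 6 and 78.6 at day 3 (1.09) and Rps6 37.0 and 13.9 (1.24). The pooled share at day 6 was 1.07 (0.982 to 1.17) of that at day 3, with 1.16 (1.03 to 1.30) for the large and 0.973 (0.852 to 1.11) for the small subunit.

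Not all ribosomal protein genes were seen in every library. Above 0 were 82 of 86 in NLRP3KO naive and 81 in WT naive, 69 and 68 at day 3, and 47 and 72 at day 6, and 45 were above 0 in all 6. Of all 23415 entries, 12570 were above 0 in NLRP3KO naive and 12875 in WT naive. There were 6369 and 6746 at day 3, and 2777 and 6881 at day 6, so fewer were seen over all genes too. Rpl26, a core gene of the large subunit, was listed at 0 in all 6 libraries, as were Rpl3l and Rpl10l. Since every cell is known to use Rpl26, an exact 0 in these tables can be a failed estimate. The transcript of Rpl26 shares 71.3% of its 50-base stretches with other genes. Rpl37, Rpl38, Rps12, Rps28, Rps29 and the paralog Rpl22l1 were listed at 0 in all 4 Th2 libraries and above 0 in both naive ones. Rpl38 had 136 in NLRP3KO naive and 251 in WT naive, Rps29 126 and 195, and Rps28 61.9 and 203. For these 6 genes, 3 fragments would have given between 6.77 FPKM (Rpl37) and 29.0 FPKM (Rpl38) in WT day 3. Genes at 0 had shorter reference transcripts than those above 0 in each Th2 library, with medians of 584 and 860 bases in NLRP3KO day 3 and 789 and 860 bases in NLRP3KO day 6. A further 17 genes, among them Rps15, Rps27a, Rplp2 and Rpl35, were at 0 in NLRP3KO day 6 alone, the shallowest library. The shares of all genes at 0 in all 4 Th2 libraries or in NLRP3KO day 6 alone are not given here.

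The paralogs were mostly low beside the genes they resemble. Rpl3l, known from heart and skeletal muscle, and Rpl10l, known from testis, were listed at 0 throughout, while Rpl3 had 166 in NLRP3KO naive and 141 in WT naive. Rpl39l, also known from testis, had 0 and 0.348 in NLRP3KO and WT naive, and Rpl39 had 418 and 832. Rpl22l1 had 92.0 and 205, close to Rpl22, which has a known role in T cell development, at 96.2 and 182. Rpl36al was higher than Rpl36a, with 259 and 436 against 31.2 and 54.4. Rps27l, a p53 target, had 10.2 in NLRP3KO naive and 44.0 in WT naive, whereas Rps27 had 55.1 and 0. Rpl7l1 had 12.4 and 14.1, against 345 and 451 for Rpl7, and Rps4y2, annotated as Rps4l in the reference, had 1.69 and 0, against 522 and 618 for Rps4x. Rps19bp1 had 13.4 in each naive library, 3.07 and 2.42 in NLRP3KO and WT at day 3, and 0 and 2.58 at day 6.

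In the naive libraries the deposited FPKM of many ribosomal protein genes lay above its own upper bound, in 52 of 86 genes in NLRP3KO and 58 in WT, but in none in the 4 Th2 libraries. The FPKM divided by the midpoint of its bounds had a median of 1.20 in NLRP3KO naive and 1.23 in WT naive, and of 1.01 to 1.03 in the Th2 libraries. Among the shortest 29 transcripts (371 to 633 bases) the median ratio was 1.37 in NLRP3KO naive and 1.41 in WT naive, in the middle 28 (661 to 954 bases) 1.23 and 1.24, and in the longest 29 (964 to 5179 bases) 1.11 and 1.13. The ratio was thus alike in both genotypes, and with the midpoint in place of the FPKM the naive median difference was -0.98 again. Levels of short genes in naive cells against Th2 cells depend on which of the values is used: the WT day 3 against naive median was -1.47 with midpoints.

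**Figure D5:**
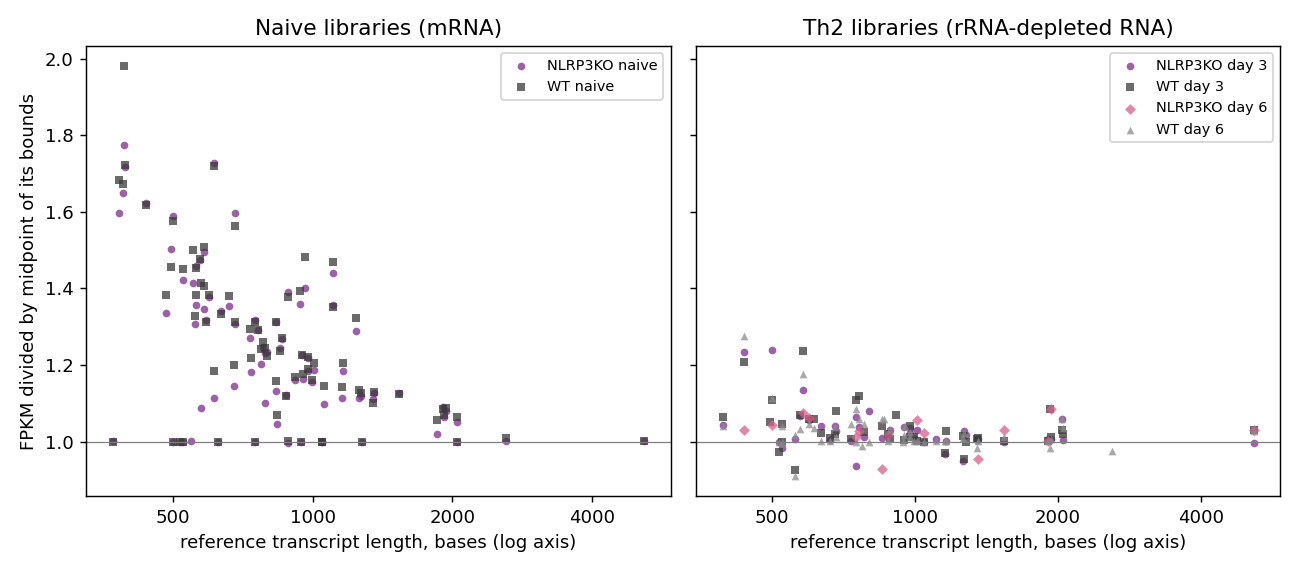
FPKM divided by the midpoint of its deposited bounds for each ribosomal protein gene with a lower bound above 0, against reference transcript length on a log axis, in naive (left) and Th2 (right) libraries. Apart from several genes at a ratio of 1 at all lengths, the ratio climbs toward 1.98 in short transcripts of the naive libraries, and it stays at or below 1.28 in the Th2 libraries.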

How the data were processed

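RNA was sequenced from CD4 T cells in 6 libraries, 1 per genotype and stage. The deposited tables hold FPKM values with a lower and an upper bound per gene, which the authors made with TopHat and Cufflinks on mm9, per the submitters' processing notes; versions: not given in the sources used here. Coordinates are on mm9, with 1 added to the deposited start.

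Libraries were scaled by the median ratio over 1059 genes whose FPKM reached 1 in every library, of which 45 were ribosomal protein genes. Differences were taken on log2(scaled FPKM + 1). Small RNAs and gene models of up to 300 bases (737 entries) were left out of totals. The number of fragments behind a value was estimated from its bounds, with a floor of 3 fragments, and intervals are at 95%. Pooled ratios with exact intervals treat these estimates as counts. Transcript lengths and 50-base stretches shared between genes came from GENCODE M21 and promoters from RefSeq on GRCm38.p6, matched by symbol. Neither is on mm9, so lengths may differ from the authors' models. The steps were run on Python 3.11.15 with pandas 2.3.3, numpy 2.4.6 and scipy 1.17.1, and tested on simulated data.

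With 1 library a group there was no test. Named were the 5 genes of each subunit with the highest mean scaled level, up to 6 a direction that were 2-fold apart with bounds apart, genes at 0 in a naive library, the shortest and longest gene, the paralogs, Rps19bp1 and genes of known role; some genes that these rules select are not reported here. Rpl10, Rps21, Rps2, Rpl8 at day 6, the genes at 0 in Th2 cells and the genes beyond 6 at day 6 were chosen after their values were seen. The genes, the lists and the rules were chosen with earlier results of these data known. Alternatives covered scaling, pseudocount, low-value filter, zeros and choice of members. Use of midpoints, of implied lengths and of shared sequence was chosen after seeing the data.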

Additional observations from a re-analysis of the deposited data

Results flagged for a closer look

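The pseudogene Rpl34-ps1, which is not one of the 86 genes, had an FPKM of 37.5 in NLRP3KO naive and 0 in each of the other 5, while Rpl34 itself had 35.1 in NLRP3KO naive and 219 in WT naive. Rpl34 shares 37.9% of its 50-base stretches with other genes.

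The median difference between NLRP3KO and WT was -0.98 in naive cells, 0.14 at day 3 and -1.37 at day 6, so day 3 differed in sign from both other stages. The differences between stages were not tested. The median of all genes was 0.01 in naive cells, 0.11 at day 3 and -1.52 at day 6.

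Rpl8 had deposited bounds apart in opposite directions at 2 stages. In naive cells it had 1790 in NLRP3KO (bounds 1378 to 1499) and 1472 in WT (1144 to 1237), which after scaling gave a difference of -0.14, and at day 6 it had 53.9 in NLRP3KO (17.9 to 98.4) and 185 in WT (126 to 223), a difference of -1.94. The difference between the stages was not tested.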

How the results depend on the processing

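Of 188 alternatives, 0 changed the sign of a median difference, but the order of the genotypes in the family's share turned under some. Among the medians, 75 stayed within the 95% binomial interval of the median over genes and 7 did not, among counts of genes 2-fold apart 64 stayed within 1.5 times and 18 did not, and among shares of summed FPKM 4 stayed and 20 moved by the counting interval; the cause was not tested. Values as deposited gave medians of -0.60 in NLRP3KO against WT naive (13 genes 2-fold apart), -3.52 in NLRP3KO day 3 against naive (81 genes) and -4.37 in WT day 3 against naive. The medians of all genes as deposited were 0.37, -2.33 and -2.05 in the same order. Upper-quartile scaling gave -0.30 in NLRP3KO and -1.41 in WT for day 3 against naive. It could not be computed for comparisons with NLRP3KO day 6, whose upper quartile was 0. Genes above 0 in both libraries gave medians of -0.56 for NLRP3KO against WT day 6 and -0.41 for NLRP3KO day 6 against day 3. Their counts were 9 of 64 at day 3 and 20 of 47 at day 6 between genotypes. In NLRP3KO they were 22 of 69 for day 3 against naive and 18 of 46 for day 6 against day 3. In WT day 6 against day 3 the count was 17 of 65. Transcripts of at least 600 bases gave counts of 24 of 58 in naive cells and 11 of 54 at day 3 between genotypes. For day 3 against naive they gave 21 of 58 in NLRP3KO and 38 of 57 in WT. Genes that share at most 50% of their 50-base stretches gave counts of 20 of 35, 5 of 31 and 21 of 32 between genotypes in naive, day 3 and day 6 cells. For day 3 against naive they gave 12 of 35 in NLRP3KO and 20 of 34 in WT. For day 6 against day 3 they gave 21 of 31 in NLRP3KO and 12 of 33 in WT. The main counts between genotypes were 41 of 82, 18 of 73 and 45 of 72. A lower count among fewer genes is thus not by itself a lower share. The share of summed FPKM with all entries in the total was 11.3% in NLRP3KO and 13.6% in WT naive, 2.49% and 2.65% at day 3, where NLRP3KO stood above WT without the small RNAs and short models, and 2.20% and 2.89% at day 6. As a share of fragments it was 2.92% and 4.79%, 3.47% and 3.33%, and 4.15% and 3.57%, with NLRP3KO above WT at day 6. Without paralogs and Rps19bp1 it was 12.9% and 19.6% in NLRP3KO and WT naive and 11.2% in WT day 6. With midpoints it was 11% (10.99) in NLRP3KO and 17.2% in WT naive, 11.3% and 10.6% at day 3 and 11.2% in WT day 6. No paired analysis was possible because each group had 1 library and the groups share no more than 1 replicate number; a genotype comparison paired by stage was not run. In NLRP3KO day 6, 57 of the 86 genes rested on under 3 estimated fragments, which limits every value there.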
